A study of Mus musculus with 10 samples.

Results

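The genes described here encode the mouse receptors for immunoglobulin G, the adaptor chain that carries their signal, and sialoadhesin, a lectin of macrophages. They are Fcgr1, Fcgr4 and Fcgr3 (activating receptors), Fcgr2b (the inhibitory receptor), Fcer1g (the common gamma chain) and Siglec1 (sialoadhesin). Each was taken as the probe set whose only annotated symbol is that gene. All 6 were found, each with 1 probe set, among 19938 named genes. Expression was measured on 10 Affymetrix mouse arrays of bone marrow cultures, as log2 values that the authors normalized with RMA. The marrow came from the long bones of male Swiss mice aged 4 to 6 weeks and was grown in αMEM with 10% FCS and 1,25(OH)2D3 (calcitriol) at 1e-08 M, an agent shared by every culture. Adiponectin cultures also received recombinant mouse adiponectin at 5 µg/ml, and control cultures did not (they are called vehicle in one label and untreated in another). There was 1 control and 1 adiponectin array at each of 4, 10, 24, 72 and 120 h. The series title names lipopolysaccharide contamination of the adiponectin treatment. All adiponectin cultures received that treatment, so adiponectin and lipopolysaccharide cannot be told apart in these data. A change with adiponectin, or an adiponectin effect, here means a difference between treated and control cultures. The labels do not give the amount of lipopolysaccharide, or say whether the cultures came from separate or pooled mice. The p-values therefore reflect only how much these cultures vary, and that variation may be technical. With 1 pair at each time, the spread behind the mean difference between arms also takes in any change of that difference with time.

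Fc gamma receptors let phagocytes bind antibody-coated particles and immune complexes. The activating receptors pair with the gamma chain, whose immunoreceptor tyrosine-based activation motif recruits the kinase Syk. The inhibitory receptor carries an inhibitory motif of its own that recruits phosphatases and dampens the same signal. The balance between both kinds sets how strongly macrophages, osteoclast precursors and neutrophils answer to immunoglobulin G. Sialoadhesin binds sialic acid on other cells and on microbes, marks certain tissue macrophages, and is known as a gene that type I interferon induces. Fcgr1 is likewise known as an interferon-induced gene.

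The arrays had similar scales, with medians over the named genes from 8.27 (the 10 h control) to 8.48 (the 24 h control) on the log2 scale. All 6 genes lay above the array median on every array. Macrophage marker genes were high throughout: the mean log2 level of 16 genes, among them the colony-stimulating factor receptor gene Csf1r and the lysosomal glycoprotein gene Cd68, was 11.67 to 11.84 in controls and 11.80 to 12.08 in adiponectin cultures. In that list 1 gene, the scavenger receptor gene Marco, rose with adiponectin (2.04 ± 0.30; limma adjusted p = 3.71e-06), and the mannose receptor gene Mrc1 was at -0.64 ± 0.56 (0.0903). The list's Cd163, picked out after its values were seen, lay below the array median on all arrays. Bulk RNA cannot tell fewer cells of a type from less RNA per cell.

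Adiponectin cultures had higher levels of Fcgr1 and Siglec1 and no call for the other 4 genes. Fcgr1 rose by 0.98 ± 0.48 on the log2 scale (mean difference over times ± SD, n = 5 pairs), which is 1.97-fold, and Siglec1 by 0.87 ± 0.37, which is 1.83-fold. Fcgr4 was 0.79 ± 0.68 higher on average and Fcgr3 was at -0.42 ± 0.29, and both missed the threshold. Fcgr2b (-0.15 ± 0.29) and Fcer1g (0.05 ± 0.08) had mean differences near 0. So 2 of 6 genes rose and 0 fell in the limma fit with time point as a block (adjusted p under 0.05), where 2.05% of all named genes rose and 0.371% fell (408 and 74 genes; with the 10 h pair left out 46 fell, and with the 24 h pair left out 21). The median mean difference was 0.01 over all genes.

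**Figure D1:**
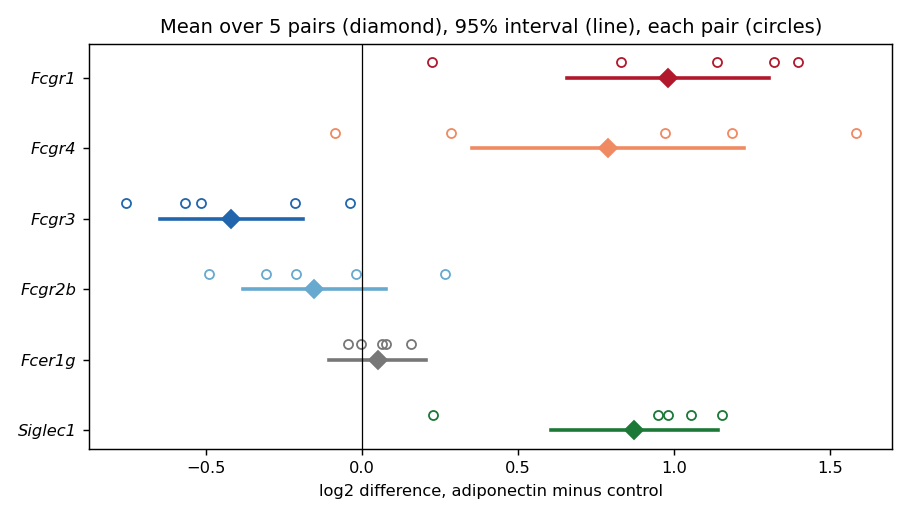
The log2 difference between adiponectin and control cultures for each gene (x axis), with the mean over 5 pairs as a diamond, its 95% interval from limma as a line and each pair as an open circle. All circles of Fcgr1 and Siglec1 lie above 0 and all of Fcgr3 below it; the interval of Fcer1g runs from -0.10 to 0.21.

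Fcgr1 encodes the high-affinity activating receptor, which can bind monomeric immunoglobulin G. In controls its log2 level was 11.18, 11.02, 10.99, 10.60 and 10.09 at 4, 10, 24, 72 and 120 h. In adiponectin cultures it was 11.40, 11.85, 12.38, 11.74 and 11.41 at the same times. Every adiponectin value lay above every control value. The share of all named genes whose arms lie apart in this way was not counted. The difference was 0.23 at 4 h, 0.83 at 10 h and 1.40 at 24 h, and then 1.14 and 1.32 at 72 and 120 h. In fold terms that is 1.17-fold at 4 h and 2.63-fold at 24 h. The limma estimate of 0.98 had a 95% interval of 0.66 to 1.31 (adjusted p = 0.00363), and the gene was higher in 5 of 5 pairs, as were 6.32% of all named genes. It ranked 124 by size of rise among the 19938 genes. With any 1 time left out the call stood (estimates from 0.88 to 1.17, highest adjusted p = 0.0276).

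Siglec1 encodes sialoadhesin and rose by a similar amount. Its control levels were 11.74, 11.67, 11.99, 12.30 and 12.23 from 4 to 120 h. Its adiponectin levels were 11.97, 12.65, 13.15, 13.25 and 13.29. The 4 h adiponectin culture lay within the range of the controls, and the other 4 lay above all of them. The difference was 0.23 at 4 h and between 0.95 (72 h) and 1.15 (24 h) afterwards. The limma interval was 0.60 to 1.14 (adjusted p = 0.00223; higher in 5 of 5 pairs), and the rank by rise was 152. Leaving out any 1 time kept the call (0.80 to 1.03; highest adjusted p = 0.0188).

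Fcgr4 encodes a receptor of intermediate affinity that needs the gamma chain and is made by monocytes, macrophages and neutrophils. In controls its log2 level was 10.35, 10.30, 10.90, 9.87 and 9.26 from 4 to 120 h. In adiponectin cultures it was 10.26, 10.59, 11.87, 11.05 and 10.84. The 24 h cultures had the highest level in both arms, and the arms overlapped when times were pooled. The difference was larger at each later time, from -0.09 at 4 h through 0.29, 0.97 and 1.18 to 1.58 at 120 h (2.99-fold). The mean over times had a 95% interval of 0.35 to 1.22 and an adjusted p of 0.0780 (limma; higher in 4 of 5 pairs). Without the 4 h pair the estimate was 1.01 and passed (limma adjusted p = 0.0130), and without the 10, 24, 72 or 120 h pair it did not.

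Fcgr3 encodes the low-affinity activating receptor and was the activating receptor with lower values in adiponectin cultures. Its control levels were 12.08, 12.07, 12.25, 12.13 and 12.50 from 4 to 120 h. Its adiponectin levels were 11.51, 11.55, 11.49, 12.09 and 12.28. The 3 early adiponectin cultures lay below all controls, and the 72 and 120 h cultures lay within the control range. The difference was -0.57, -0.52 and -0.76 at 4, 10 and 24 h, and -0.04 and -0.21 at 72 and 120 h. At 24 h the control level was 1.69-fold the adiponectin level. The mean of -0.42 had a 95% interval of -0.65 to -0.19 (limma adjusted p = 0.0738), and the gene was lower in 5 of 5 pairs, as were 4.40% of all named genes. It passed without the 72 h pair (-0.51; limma adjusted p = 0.0255) and with limma's trended, robust prior (-0.42; limma adjusted p = 0.0305).

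Fcgr2b encodes the inhibitory receptor, made by B cells and myeloid cells. Its control levels were 11.82, 11.59, 11.90, 12.53 and 12.98 from 4 to 120 h, and its adiponectin levels 12.09, 11.57, 11.42, 12.32 and 12.67. The arms overlapped, and the adiponectin value was the higher of the pair at 4 h only. The difference was 0.27 at 4 h, -0.02 at 10 h, -0.49 at 24 h, -0.21 at 72 h and -0.31 at 120 h. The 95% interval of the mean was -0.38 to 0.08 (limma adjusted p = 0.751), so a mean rise above 0.08 log2 units lay outside it.

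Fcer1g encodes the gamma chain, which the activating receptors need for surface expression and signal. Its log2 level was 13.59, 13.64, 13.61, 13.56 and 13.64 in controls from 4 to 120 h and 13.55, 13.72, 13.77, 13.62 and 13.63 in adiponectin cultures. The 10 values spanned a narrow range, and the arms overlapped. The difference had its highest value, 0.16, at 24 h, and the 95% interval of the mean was -0.10 to 0.21 (limma adjusted p = 0.905).

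**Figure D2:**
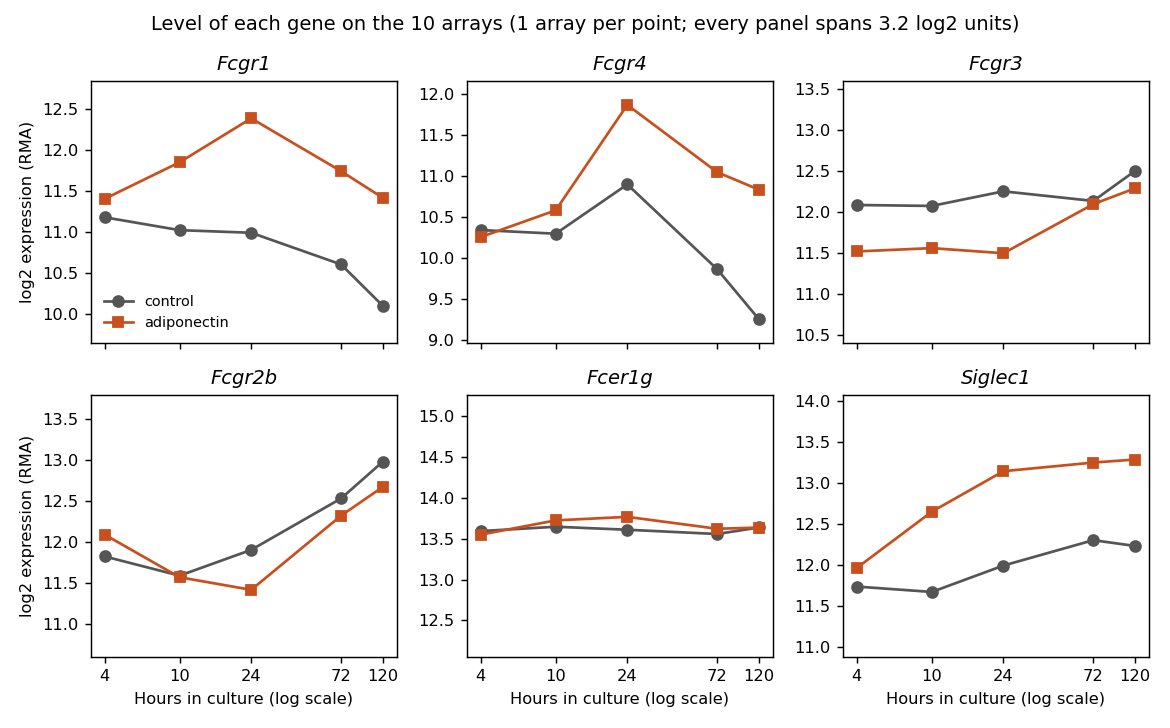
Log2 expression (y axis, RMA values) of each gene against hours in culture (x axis, log scale), with controls as grey circles and adiponectin cultures as orange squares, 1 array per point; every panel spans the same number of log2 units. The Fcgr1 lines lie apart at every time, the Fcgr4 lines separate from 24 h, the Fcgr3 lines meet near 72 h, and the Fcer1g lines stay between 13.55 and 13.77.

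The difference between arms was then tested for a change with time, as the treatment by log2 hours term beside the time point block. No gene of the 19938 passed (0% called in either direction), with 620 positive and 1339 negative terms at an unadjusted p under 0.05. The lowest limma adjusted p, 0.0764, was shared by 6 genes, and Fcgr4 was among them. Its difference grew by 0.33 log2 units per doubling of hours (95% interval 0.24 to 0.42), and its unadjusted p, 1.92e-05, ranked 4 among all genes. Under limma's trended, robust prior the adjusted p was 0.0485 and 2 genes rose and 3 fell, and with 1 time left out it was between 0.108 and 0.712. The slope of the difference was 0.20 for Fcgr1 (0.07 to 0.32), 0.13 for Siglec1 (0.00078 to 0.26), 0.10 for Fcgr3 (-0.01 to 0.21), -0.11 for Fcgr2b (-0.21 to 0.0034) and 0.0066 for Fcer1g (-0.08 to 0.09). Their limma adjusted p ran from 0.499 (Fcgr1) to 0.954 (Fcer1g). Without the 4 h pair the slope was -0.0024 for Siglec1, 0.09 for Fcgr1 and -0.04 for Fcgr2b, and without the 72 h pair it was 0.06 for Fcgr3.

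**Figure D3:**
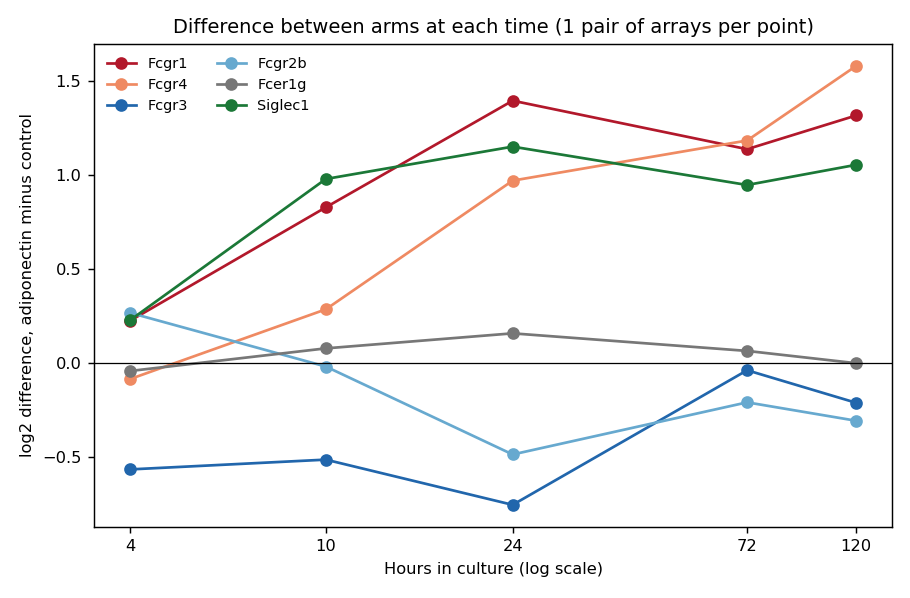
The log2 difference between the adiponectin and the control array (y axis) at each time (x axis, hours on a log scale) for the 6 genes, 1 pair per point. Fcgr1, Siglec1 and Fcgr4 end between 1.06 and 1.58 at 120 h, and Fcgr3 and Fcgr2b lie at or below -0.02 from 10 h on.

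Within pairs, where a shift of a whole array cancels, the change of each gene was also set against that of Fcgr2b, the inhibitory receptor. Relative to Fcgr2b, Fcgr1 changed by 1.13 ± 0.76 on the log2 scale (n = 5 pairs; 2.19-fold). At 4 h this value was -0.04, and it was 0.85, 1.88, 1.35 and 1.63 from 10 to 120 h. For Siglec1 it was 1.02 ± 0.64 and for Fcgr4 0.94 ± 0.93, each above 0 in 4 of 5 pairs, with -0.35 at 4 h and 1.89 at 120 h for Fcgr4. For Fcgr3 it was -0.27 ± 0.42, running from -0.83 at 4 h to 0.17 at 72 h, and for Fcer1g 0.20 ± 0.35. An exact two-sided sign permutation test over the 5 pairs cannot give a p below 0.0625. This exact test gave p = 0.125 for Fcgr1 and Siglec1, 0.188 for Fcgr4, 0.250 for Fcgr3 and 0.313 for Fcer1g, and each was 0.313 when adjusted over the 5 comparisons.

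The course of each gene with time in culture was fitted in each arm as a slope per doubling of hours. In controls 0 of 6 genes passed in either direction, while 4.64% of all named genes rose and 4.45% fell. With each array centred on its median those counts were 738 and 1559 in place of 925 and 888, and they were 6 and 27 without the 72 h arrays and 5 and 17 without the 120 h arrays. The Fcgr1 slope was -0.20 (95% interval -0.36 to -0.04; limma adjusted p = 0.115), and the level at 120 h was 1.08 log2 units under that at 4 h. Fcgr4 had nearly the same slope with a wider interval (-0.20; -0.45 to 0.06; limma adjusted p = 0.290). Fcgr2b and Siglec1 had positive slopes of 0.25 (0.07 to 0.43) and 0.13 (0.04 to 0.23), each at a limma adjusted p of 0.0832. Fcgr2b was 1.16 log2 units (2.23-fold) higher at 120 h than at 4 h. Fcgr3 (0.06) and Fcer1g (-0.0013) had slopes closer to 0. Without the 24 h arrays the slopes of Fcgr1 (-0.20; limma adjusted p = 0.0398) and Fcgr4 (-0.20; 0.0328) passed, and without the 4 h arrays that of Fcgr2b did (0.38; 0.0128). With the control arm fitted alone Fcgr1 (0.0450) and Fcgr2b (0.0459) passed too.

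In adiponectin cultures 2 of 6 genes rose with time and 0 fell, where 4.15% of all named genes rose and 3.46% fell (63 and 50 genes without 72 h and 23 and 15 without 120 h, in place of 827 and 689). Siglec1 rose by 0.26 log2 units per doubling (95% interval 0.16 to 0.35; limma adjusted p = 0.00791) and ended 2.50-fold above its 4 h level. Fcgr3 rose by 0.16 per doubling (0.07 to 0.25; limma adjusted p = 0.0345) and ended 1.71-fold above its 4 h level. Both calls were lost when some single times were left out, mostly with slopes of similar size. That of Siglec1 was lost without 4 h (0.17; limma adjusted p = 0.0832), 72 h (0.26; 0.0665) or 120 h (0.31; 0.0709). That of Fcgr3 was lost without 10 h (0.16; 0.100), 72 h (0.16; 0.144) or 120 h (0.13; 0.375). The straight line described Fcgr1 and Fcgr4 poorly in this arm, since both were highest at 24 h (12.38 and 11.87) and lower later. Their slopes were -0.0014 and 0.13 (limma adjusted p = 0.995 and 0.612). Fcgr2b had its lowest value, 11.42, at 24 h and a slope of 0.15 (-0.04 to 0.33; limma adjusted p = 0.374), which was 0.34 without the 4 h arrays (limma adjusted p = 0.0233). Fcer1g had a slope of 0.0054 (-0.05 to 0.06). Whether the slopes differ between arms is the treatment by time term above, which called none of them.

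**Figure D4:**
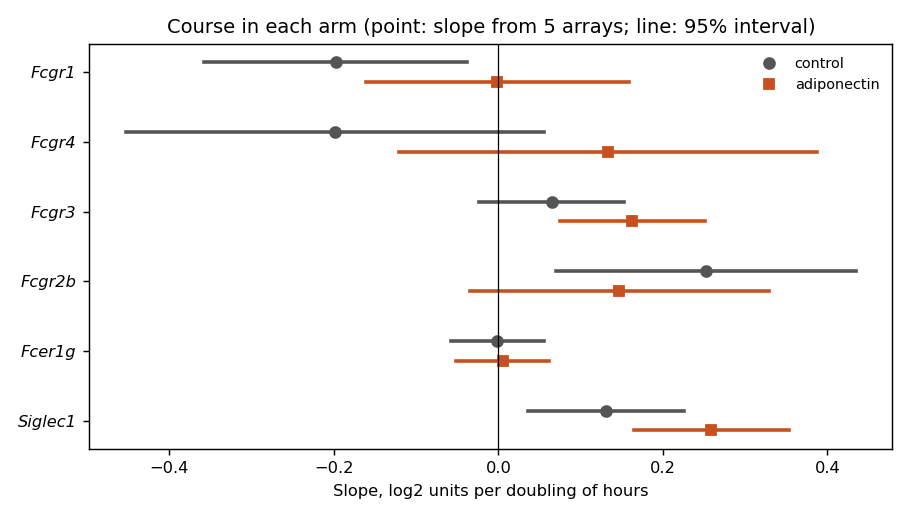
Slope of each gene in log2 units per doubling of hours (x axis) in control (grey circles) and adiponectin cultures (orange squares), each from 5 arrays, with its 95% interval as a line. The intervals of Siglec1 and Fcgr3 in adiponectin cultures lie above 0, and those of Fcgr1 are -0.36 to -0.04 in controls and -0.16 to 0.16 in adiponectin cultures.

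Among the markers of other cell types, the mean levels of those of neutrophils, osteoclasts and B cells differed most between early and late cultures. Smaller changes from 4 to 120 h were seen for stromal genes (10.39 to 11.13 in controls, 10.25 to 11.19 with adiponectin). The same holds for dendritic cell genes (8.97 to 8.34 and 8.79 to 7.99) and mast cell and basophil genes (7.70 to 7.15 and 7.82 to 7.01). Neutrophil marker genes (12 measured, granule and calgranulin genes among them) had a mean log2 level of 13.30 in the 4 h control and 10.03 in the 120 h control, and 13.08 and 10.07 in the adiponectin cultures. Of the 12, 0 passed for adiponectin against control: the antimicrobial peptide gene Camp was at -0.36 ± 0.38 (limma adjusted p = 0.271; 0.0310 without 120 h) and the collagenase gene Mmp8 at -0.31 ± 0.26 (0.195). Osteoclast marker genes (10 measured) went from 10.27 to 12.17 in controls and from 10.25 to 11.81 in adiponectin cultures, with a pair difference of -1.20 at 72 h. Of these, Atp6v0d2, a proton pump subunit, fell with adiponectin (-0.91 ± 0.43; limma adjusted p = 0.00346), and the fusion gene Dcstamp was at -0.54 ± 0.89 (0.525). For NK cell marker genes (9 measured, 6 of them below the array median on every array) the mean level was higher with adiponectin in 5 of 5 pairs, by 0.17 to 0.81. Of these genes 1 rose, and the median of their mean differences was 0.19. The gene that rose was Klrk1, an activating NK receptor (1.88 ± 0.63; limma adjusted p = 0.000178). At 10 h Klrk1 was at 2.27, where the list mean was at 0.17, so the list mean does not describe each gene. Gzmb, a granule protease, was at 1.51 ± 1.36 (0.0804; 0.0476 without 4 h and 0.0291 without 10 h). B cell marker genes (8 measured) differed between arms by -0.05 to 0.16, with 0 past the threshold, and had a mean level of 10.54 in the 4 h control and 8.72 in the 120 h control. Mast cell and basophil genes (9 measured) differed by -0.13 to 0.18 and stromal genes (8 measured) by -0.13 to 0.18, with 0 past the threshold in either list. The genes with the largest mean differences there were Ms4a1 (0.24 ± 0.19) and Igll1 (-0.23 ± 0.09) for B cells, Hdc (0.20 ± 0.25) and Mcpt8 (0.12 ± 0.38) for mast cells and basophils, and Cxcl12 (-0.35 ± 0.41) and Dcn (0.22 ± 0.34) for stroma. Of 9 dendritic cell genes, 1 rose, the interferon-inducible Bst2 (1.26 ± 0.42; limma adjusted p = 0.000346), and 1 fell, the lectin gene Cd209a (-2.36 ± 0.54; 1.36e-05). The part of these shifts in the receptor results was not tested.

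**Figure D5:**
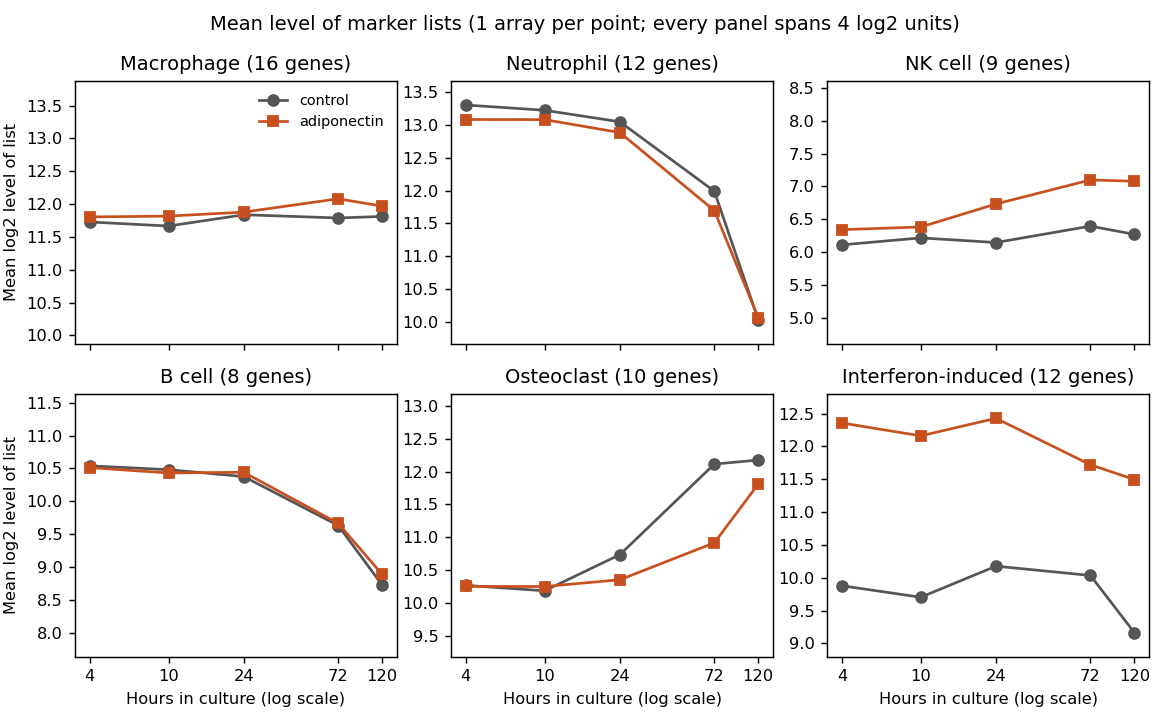
Mean log2 level of the measured genes of each marker list (y axis) against hours in culture (x axis, log scale) in control (grey circles) and adiponectin cultures (orange squares), 1 array per point, with panels of equal span. Neutrophil and B cell lists are lower late in both arms, the macrophage list stays between 11.67 and 12.08, and the interferon-induced list is 1.69 to 2.48 higher with adiponectin.

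Genes that interferon induces were set beside Fcgr1 and Siglec1. All 12 measured genes of that list rose, with a median of 2.67, against 0.01 over all genes. The antiviral effector genes Ifit2 (2.996 ± 0.538), Ifit1 (2.88 ± 0.54), Ifit3 (2.80 ± 0.59), Mx1 (2.71 ± 0.49), Oasl1 (2.69 ± 0.45) and Rsad2 (2.65 ± 0.29) rose, as did the chemokine gene Cxcl10 (2.74 ± 0.96) and Usp18, a negative regulator of interferon signalling (2.63 ± 0.25). The transcription factor genes Irf7 (1.76 ± 0.44), Stat2 (1.52 ± 0.21), Irf1 (0.79 ± 0.26) and Irf9 (0.72 ± 0.08) rose by less on average. The highest limma adjusted p of the 12 was 0.000968 (Irf1). In an ordinary test without moderation, Usp18 alone of the 12 kept its call. The adjusted p of the others in that test ran from 0.0549 (Rsad2 and Irf9) to 0.202 (Cxcl10). Their mean difference was already 2.48 at 4 h and was 2.46, 2.25, 1.69 and 2.33 at 10, 24, 72 and 120 h. Fcgr1 and Siglec1 were each at 0.23 at 4 h on those arrays. Irf7 was at 1.28 at 4 h and 2.05 at 24 h, and Irf1 at 1.20 and 0.82. Among 16 cytokine and regulator genes linked to Fc receptor control, 2 rose: Il10, an anti-inflammatory cytokine (0.89 ± 0.45; limma adjusted p = 0.00534), and the transcription factor gene Cebpb (0.38 ± 0.18; 0.0399). The Cebpb call was lost without any 1 time (adjusted p up to 0.119) and under both other scalings (0.0881 and 0.0651). The median of that list was 0.04.

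Of 34 measured genes for kinases, adaptors and phosphatases of Fc receptor signalling, 1 rose, 0 fell and the median was 0.05. The gene that rose was Pik3ap1, an adaptor for phosphoinositide 3-kinase (0.47 ± 0.15; limma adjusted p = 0.00731), and the adaptor gene Lat was at -0.34 ± 0.27 (0.154). Among 12 other Fc receptors, 1 rose and 0 fell, with a median of 0.03. Trim21, the cytosolic antibody receptor, rose by 0.86 ± 0.13 with 0.66 to 0.96 in each pair (limma adjusted p = 8.16e-05). Fcrls, an Fc receptor-like gene, was at -0.63 ± 0.54 (0.0878), and it passed without 72 h (-0.73; 0.0468) or 120 h (-0.78; 0.0366).

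Of 12 measured genes for mostly inhibitory receptors of leukocytes other than Fcgr2b, 5 rose and 0 fell, with a median of 0.26. They were Klra2 (1.17 ± 0.67; limma adjusted p = 0.00821), the B cell and macrophage receptor gene Cd72 (0.84 ± 0.27; 0.000732), Cd300lf (0.56 ± 0.27; 0.0120), the lectin gene Clec4a1 (0.44 ± 0.19; 0.0191) and Pilra (0.35 ± 0.10; 0.0279). Calls were lost with 1 time left out for Klra2 (without 24 h, 0.0527), Clec4a1 (without 10, 24, 72 or 120 h, up to 0.0929) and Pilra (without any 1 time, up to 0.104), as adjusted p. Of 12 other genes, mostly for adaptors with activation motifs and receptors that use them, 2 rose and 0 fell, with a median of -0.03. Clec4e, the lectin Mincle that signals through the gamma chain, rose by 1.09 ± 0.53 (limma adjusted p = 0.00326), and Pilrb1 by 0.55 ± 0.22 (0.00731). Among 17 other Siglec and sialic acid genes, 1 rose and 1 fell, with a median of -0.02. Siglece, an inhibitory Siglec of myeloid cells, rose by 0.82 ± 0.36 (limma adjusted p = 0.00281), with 0.34 at 4 h and 0.58 to 1.19 later. St6gal1, a sialyltransferase, fell by 0.61 ± 0.12 (limma adjusted p = 0.00101).

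Promoter sequences are given for the activating receptor genes, Fcgr1 and Fcgr4 with positive mean differences and Fcgr3 with a negative one. Of these, Fcgr4 and Fcgr3 missed the threshold. RefSeq windows of 300 bases (250 before to 50 after a transcription start, build GRCm38.p6) matched 5 of 6 genes; Siglec1 had none. They were searched on both strands for the gamma-activated site TTCNNNGAA, the interferon-stimulated response element (GAAA, any 2 bases, GAAA) and the PU.1 core GAGGAA. Capitals mark the matches, read 5′ to 3′ on the strand of the gene. Fcgr1 lies on the minus strand (chr3:96293920-96294219), Fcgr4 on the plus strand (chr1:171018676-171018975) and Fcgr3 on the minus strand (chr1:171059354-171059653; the first of 2 windows).
Fcgr1: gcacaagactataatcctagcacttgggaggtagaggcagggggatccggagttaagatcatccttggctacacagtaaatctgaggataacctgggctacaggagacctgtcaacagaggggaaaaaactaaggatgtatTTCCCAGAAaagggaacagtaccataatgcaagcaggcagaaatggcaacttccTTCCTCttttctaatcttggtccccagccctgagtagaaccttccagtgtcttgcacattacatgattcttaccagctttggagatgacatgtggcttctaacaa
Fcgr4: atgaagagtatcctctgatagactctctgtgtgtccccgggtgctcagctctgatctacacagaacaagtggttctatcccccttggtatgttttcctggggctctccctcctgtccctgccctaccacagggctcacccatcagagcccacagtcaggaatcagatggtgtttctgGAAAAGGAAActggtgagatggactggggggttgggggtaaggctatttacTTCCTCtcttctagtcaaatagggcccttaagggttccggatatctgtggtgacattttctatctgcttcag
Fcgr3: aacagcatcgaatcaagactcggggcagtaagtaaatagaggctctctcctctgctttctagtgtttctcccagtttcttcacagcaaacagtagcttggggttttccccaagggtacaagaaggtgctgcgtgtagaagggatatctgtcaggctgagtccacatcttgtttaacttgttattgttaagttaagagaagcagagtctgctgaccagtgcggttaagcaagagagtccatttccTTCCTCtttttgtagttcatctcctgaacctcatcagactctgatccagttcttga
The Fcgr1 window held 1 gamma-activated site match, TTCCCAGAA, beginning 109 bases before the start, as did 8.30% of 32851 windows of this length. The Fcgr4 window held 1 response element match, GAAAAGGAAA, beginning 73 bases before the start, as did 3.44% of windows. The PU.1 core was found on the opposite strand as TTCCTC in the windows of Fcgr1, Fcgr4 and Fcgr3, and in 28.3% of all windows. The motifs did not overlap each other. The windows of Fcgr2b and Fcer1g held none of the 3 letter strings. A match of letters is a description and not a bound site.

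By gene order in RefSeq, Fcgr2b, Fcgr4, Fcgr3 and Fcer1g follow one another on chromosome 1, while Fcgr1 lies on chromosome 3 and Siglec1 on chromosome 2. Between Fcgr2b and Fcer1g lie 7 other protein-coding genes, all of them between Fcgr3 and Fcer1g, and 6 were measured. Of these 0 rose and 0 fell (limma), with mean differences from -0.28 to 0.13 and a median of -0.01. Neighbours on chromosome 1 thus had mean differences of opposite sign, 0.79 for Fcgr4 and -0.42 for Fcgr3. Fcgr2b, Fcgr3 and Fcgr4 are paralogs with similar extracellular parts, and whether their probes share signal was not tested.

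For each gene the 3 most similar courses were taken as the highest Pearson r of log2 values over the 10 arrays, among 2478 other genes that span at least 1 log2 unit (2479 for Fcer1g). The points share arrays and treatment, so r is a description. Fcgr1 was most like Fgl2 (0.979), Dck (0.971) and H2-T24 (0.971), and Siglec1 most like Ifi27l2a (0.974), Bst2 (0.959) and Scarf1 (0.958). Fcgr4 was most like Selenow (0.970), Gpr65 (0.949) and Milr1 (0.946). Fcgr3 was most like Cyp27a1 (0.982), Wwp1 (0.979) and Rnf150 (0.978), and Fcgr2b most like Adgrl2 (0.982), Fchsd2 (0.977) and Antxr2 (0.968). Fcer1g, which varied little, reached 0.809 with Apol7c, 0.773 with Aldh1b1 and 0.771 with Il23r.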

How the data were processed

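Values are log2 expression per probe set, deposited by the authors. Per the submitters' processing notes they were made with Affymetrix Expression Console, RMA and Partek; the versions, order and build were not given in the sources used here. RMA's quantile step removes much of any shift shared by most transcripts. Of 35556 probe sets, 21789 have 1 symbol in the platform annotation, 1621 several and 12146 none. The highest-mean probe set stood for each of 19938 genes, with no filter on dim genes; 999 genes had more than 1.

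Tests used limma 3.58.1 under R 4.3.3 (lmFit, eBayes, two-sided, Benjamini-Hochberg over all genes, threshold 0.05). Treatment was fitted with a block for each time point (4 residual degrees of freedom), and its change with time added treatment by log2 hours (3). Slopes came from 1 model with an intercept and slope for each arm (6), where the pairs are not blocked. The scripts were tested on simulated data. The 5 pairs follow the time points in the labels.

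The genes, lists, tests and naming rule (in each list, genes past the threshold and the 2 with the largest absolute mean difference) were chosen with earlier results of these data known. Listed genes without a probe set of their own symbol alone are not analysed here. Alternatives covered scaling, probe sets, dim genes, moderation, the time scale, the block and leaving out each time. Signal over background and saturation are not analysed here, and the number of arrays limits the precision.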

Additional observations from a re-analysis of the deposited data

Results flagged for a closer look

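The Siglec1 difference at 4 h, 0.23 on the log2 scale, stood apart from the differences at the other 4 times, which were 0.95 to 1.15. It was the 1 value singled out by the gap test for groups of 5 (critical value 0.71) among 18 groups of 5 values looked at, and chance alone singles out about 1 in 20 groups. The 5 values come from different times and are not replicates of 1 condition.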

How the results depend on the processing

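The rises of Fcgr1 and Siglec1 kept their call under 11 of 13 alternatives. Their direction could change only under the other scalings or with 1 time left out, and it did not. The remaining alternatives left both estimates the same, so they could not test direction. With an ordinary test without moderation the adiponectin effect was 0.98 for Fcgr1 and 0.87 for Siglec1 with adjusted p of 0.310 and 0.265, and with no replicate block, that is unpaired, the same estimates, 0.98 and 0.87, had adjusted p of 0.130 and 0.289, so 0 of 6 genes rose under either. With an intensity trend and robust prior Fcgr3 passed (-0.42, 1 gene fell) and so did the change of the Fcgr4 effect with time (0.33, 1 gene). Leaving out 1 time moved the effect from 0.59 to 1.01 for Fcgr4 and from -0.51 to -0.33 for Fcgr3 (0 to 1 genes fell), and its change with time from -0.025 to 0.027 for Fcer1g and from -0.0024 to 0.16 for Siglec1.

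Slopes depended more on the setting. Per hour on a linear scale they were -0.0088 for Fcgr1, 0.0114 for Fcgr2b and 9.57e-06 for Fcer1g in controls, where Fcgr1 and Fcgr2b passed (1 rose, 1 fell). In adiponectin cultures Siglec1 lost its call on that scale (0.0083; adjusted p = 0.0877), Fcgr2b gained one (0.0085; 0.0355) and Fcer1g was at -0.00029. With each arm alone they were -0.20 for Fcgr1 and 0.25 for Fcgr2b in controls, where both passed (1 rose, 1 fell). In adiponectin cultures fitted alone Fcgr3 lost its call (0.16; adjusted p = 0.0617), which left 1 gene that rose, Siglec1. The ordinary test gave 0.16 for Fcgr3 and 0.26 for Siglec1 there (adjusted p = 0.132 and 0.0773; 0 rose). The Fcer1g change with time was -0.00030 per hour and -0.033 for late against early times, and its slopes were 4.10e-05 after repeated quantile normalization (controls) and -0.00052 with arrays centred on their medians (adiponectin). With 1 time left out, control slopes ran from -0.25 to -0.13 for Fcgr1, -0.33 to -0.07 for Fcgr4, 0.18 to 0.38 for Fcgr2b and -0.011 to 0.0061 for Fcer1g (0.0028 without 10 h; 0 to 1 rose, 0 to 2 fell). Adiponectin slopes ran from -0.15 to 0.10 for Fcgr1 (0.0087 without 10 h and 0.0010 without 72 h), -0.00030 to 0.25 for Fcgr4, 0.13 to 0.23 for Fcgr3, 0.05 to 0.34 for Fcgr2b, -0.035 to 0.016 for Fcer1g and 0.17 to 0.31 for Siglec1 (0 to 2 rose). The cause was not tested.

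Over all named genes, 9 rose and 0 fell with adiponectin in the ordinary test, 146 and 4 with no replicate block, 30 fell where log2 hours replaced the block, and 113 fell after repeated quantile normalization and 117 with the trend prior. Control slopes called 3 and 3 genes in the ordinary test, 1743 and 1335 on linear hours and 513 and 490 with the arm alone; 605 rose among genes above the median level, where fewer were tested, and 1476 without 4 h and 413 without 10 h. Adiponectin slopes called 7 and 13 in the ordinary test, and 431 fell without 4 h and 320 without 10 h. The change with time called 2 rises on linear hours and 1 rise without 4, 10 or 72 h. Of the listed genes named beside the 6, all that were called except Usp18 lost their call in the ordinary test (29 genes). Calls were lost for 13 of them with no replicate block, 8 where log2 hours replaced the block and 2 with the trend prior. Of the named listed genes, 0 changed direction under any setting. Settings of moderation, prior or block leave the estimate the same, so they could not change a direction.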
